A study of Homo sapiens with 12 samples.

Results

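The IFIT and IFITM genes are small families of interferon-induced antiviral genes. They were followed here across HCT116, a colorectal cancer line of human origin that carries an oncogenic RAS allele, and its derivatives Hke3 and Hkh-2, in which that allele was targeted by homologous recombination. All probe sets that the platform annotation assigns to IFIT1, IFIT2, IFIT3, IFIT5, IFITM1, IFITM2 or IFITM3 were taken, which gave 10 probe sets for 7 genes of the 54675 probe sets on the array, and 1 further probe set names both IFITM2 and IFITM1. The genes were chosen by measured values, the differences of HCT116 from the recombined lines in these same arrays, so those differences are given as a description, and the counts of genes past the threshold of the fit across all genes support nothing for them. The differences between Hke3 and Hkh-2, also seen earlier, are treated alike. The comparison of doxycycline with vehicle was not used in the choice, and its test stands on its own.

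There were 3 arrays in each of 4 groups, namely vehicle-treated HCT116 control cells, the same control cells given doxycycline at 25 ng/ml, Hke3 and Hkh-2. HCT116 control cells, marked ctl in the labels, were collected on day 3, and the methods of the study describe HCT116 cells with stably integrated, doxycycline-inducible shRNA vectors. Hke3 and Hkh-2 were kept in basal culture without a stated time point, and the sources differ on whether the oncogenic copy was deleted or replaced in them. Each recombined line is 1 clone, so a difference between a line and HCT116 cannot be told apart from a difference between clones, from the vectors or from the culture of the control cells. All cells grew in DMEM with serum and no interferon treatment is described. Whether replicate arrays stem from separate cultures is not stated, so p-values measure only the spread between these arrays and that spread may be technical.

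Interferons are secreted after a cell senses foreign nucleic acid, and they act through cell surface receptors, Janus kinases and STAT proteins. A complex of STAT proteins with IRF9 binds interferon-stimulated response elements (ISRE) near the start of its target genes. IFIT proteins lie in the cytoplasm, carry tetratricopeptide repeats and bind viral RNA or translation factors. IFITM proteins lie in membranes of the cell surface and of endosomes and hinder the fusion of enveloped viruses. In epithelial cells without infection both families are usually expressed at a basal level that rises with interferon.

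Each value is a log2 RMA value of a probe set, that is a brightness after background correction and normalization between arrays, so values of different probe sets are not set against each other. The brightest probe set on average stood for its gene, and 12852 of 19775 genes, among them 7 of the 7 genes described here, had a group mean of at least 6. Group means under 6 count as near background, and where one enters a difference, 6 takes its place and the result is worded as a lower bound. Array medians lay between 5.80 and 5.86, and replicate arrays had correlations from 0.993 to 0.998 over probe sets, a description only. Replicate 2 of vehicle and replicate 3 of Hke3 lay away from the rest of their groups and deviated alike, with r = 0.683 over genes. The labelled cell type was checked with 8 epithelial markers, all measured above background, with group means for EPCAM between 13.09 and 13.25. Of 6 leukocyte markers 4 were measured, and the defining marker PTPRC lay between 3.80 and 3.94 in the group means, near background. The only leukocyte marker kept was CD3E, with group means from 6.04 to 6.18, and the summed level of the list lay between 18.72 and 19.92 on all arrays. Of 7 fibroblast and endothelial markers 4 were kept, and COL3A1 was at 6.73 in Hkh-2 against 4.45 to 4.49 elsewhere, while LUM, CDH5 and COL1A2 were near background. The other 3 kept were COL1A1, with group means from 8.19 to 8.43, DCN, from 6.01 to 6.21, and PECAM1, which was higher in vehicle by 0.24 than in Hke3 and by 0.29 than in Hkh-2. The summed level of this list lay between 37.23 and 39.17 outside Hkh-2 and between 39.66 and 40.40 in Hkh-2. Of the 8 epithelial markers, 3 (CLDN4, CDH1 and KRT19) were lower in vehicle than in Hke3, by -1.52, -0.83 and -0.53, 2 (CDX2 and KRT18) were higher, by 0.44 and 0.20, and 3 did not pass. Against Hkh-2, 5 were lower and 0 higher. Of all genes, 23.2% were lower and 24.6% higher against Hke3, and 21.7% lower and 14.3% higher against Hkh-2. The part of these markers in the results was not tested.

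The upstream sequences of the genes are shown first. The measured values that chose the genes did not use sequence. The families are known as interferon-induced, however, so ISRE matches there are a description and no independent finding. RefSeq promoter windows of the GRCh38.p14 assembly, 250 bases before the transcript start and 50 after it, were matched for IFIT1, IFIT3, IFIT5, IFITM1 and IFITM3. IFIT2 and IFITM2 had no entry. The 160 bases before each annotated start are printed 5′ to 3′ along the gene, with letters that match the ISRE pattern GAAANNGAAA or its reverse complement TTTCNNTTTC in capitals.
IFIT1 (chr10:89392463-89392622, plus strand): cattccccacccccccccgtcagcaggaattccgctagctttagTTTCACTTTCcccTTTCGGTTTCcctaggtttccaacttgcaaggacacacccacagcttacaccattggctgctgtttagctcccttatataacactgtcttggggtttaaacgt
IFIT3, upstream start (chr10:89327837-89327996, plus strand): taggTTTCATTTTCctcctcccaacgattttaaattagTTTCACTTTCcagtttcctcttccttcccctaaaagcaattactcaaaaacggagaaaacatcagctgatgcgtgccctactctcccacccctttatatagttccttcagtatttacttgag
IFIT3, downstream start (chr10:89332369-89332528, plus strand): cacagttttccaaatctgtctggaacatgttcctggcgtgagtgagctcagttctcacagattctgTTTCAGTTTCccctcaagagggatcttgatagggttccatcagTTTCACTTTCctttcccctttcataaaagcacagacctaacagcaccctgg
IFIT5 (chr10:89414408-89414567, plus strand): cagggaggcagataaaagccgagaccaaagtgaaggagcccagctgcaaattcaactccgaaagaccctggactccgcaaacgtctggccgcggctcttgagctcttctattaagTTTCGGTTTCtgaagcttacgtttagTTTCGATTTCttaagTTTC
IFITM1 (chr11:313880-314039, plus strand): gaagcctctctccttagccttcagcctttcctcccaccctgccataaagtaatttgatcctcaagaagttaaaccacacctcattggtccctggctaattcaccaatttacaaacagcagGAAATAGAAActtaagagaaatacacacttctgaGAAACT
IFITM3 (chr11:320861-321020, minus strand): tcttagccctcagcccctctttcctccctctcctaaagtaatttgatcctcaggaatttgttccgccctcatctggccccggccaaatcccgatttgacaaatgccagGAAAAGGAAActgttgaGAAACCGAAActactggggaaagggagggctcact
The 6 windows, 2 of them for IFIT3, all held at least 2 matches, and 1255 of all 35116 windows in the table, 3.57%, held any. In the IFIT windows the matches ran in the TTTCNNTTTC orientation, and in the IFITM windows in the GAAANNGAAA orientation. In IFIT1 the pair lay at -116 to -107 and -103 to -94, counted from the transcript start with -1 as the last base before it. IFIT3 had matches at -156 to -147 and -122 to -113 before its upstream start, and at -94 to -85 and -51 to -42 before its downstream start. IFIT5 had 3 matches, the last of which crosses the start, so that only its first 4 bases are printed. In IFITM1 the second match also crosses the start, and it overlaps the only match in these windows to the gamma-activated site pattern TTCNNNGAA, which 7.66% of all windows held. IFITM3 had matches at -52 to -43 and -35 to -26. A match is a run of letters, not a measured binding site.

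**Figure D1:**
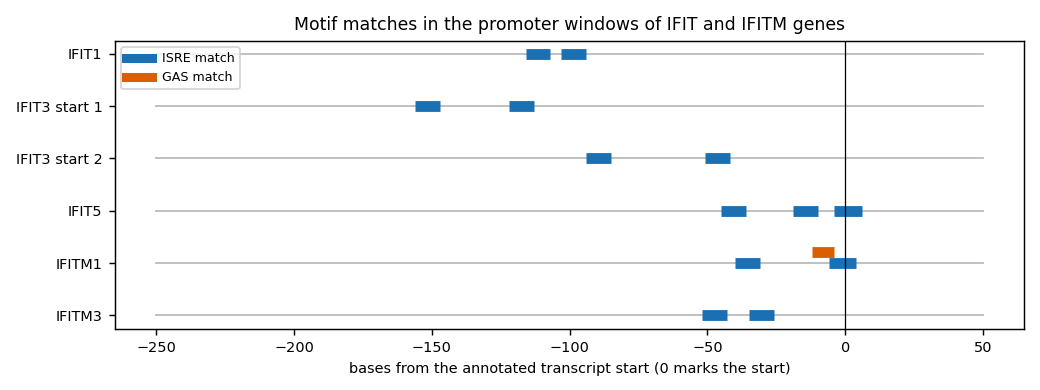
Positions of motif matches in the RefSeq promoter windows of 5 of the genes, with distance from the annotated transcript start in bases on the x axis and 1 row per start. Blue bars mark ISRE matches and the orange bar the only match to the gamma-activated site pattern, in IFITM1. Each window holds at least 2 ISRE matches, and the match farthest upstream begins at -156, in IFIT3.

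Among the IFIT genes, HCT116 cells had lower values than both recombined lines in each of the 4, with no overlap between arrays. IFIT1, which binds RNA whose cap lacks a methyl group of the host, was read by probe set 203153_at. Its 3 vehicle arrays gave 7.10, 6.91 and 7.56, and its 3 doxycycline arrays gave 7.17, 7.38 and 7.54. In Hke3 the values were 10.15, 10.00 and 9.41, and in Hkh-2 they were 10.38, 10.01 and 9.74. All 6 HCT116 arrays lay below all 6 arrays of the recombined lines, with a gap of 1.87, while Hke3 and Hkh-2 overlapped. The mean of vehicle, 7.19 ± 0.336 (SD, n = 3), was 2.66 below that of Hke3 (SE 0.214) and 2.85 below that of Hkh-2 on the log2 scale.

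IFIT3, which forms a complex with IFIT1 and steadies its binding to RNA, was near background in HCT116 and well above it in both lines. With probe set 229450_at the vehicle arrays gave 4.13, 4.54 and 4.49 and the doxycycline arrays 4.39, 5.01 and 4.37, all near background. The Hke3 arrays gave 8.51, 8.64 and 7.89, and the Hkh-2 arrays 9.23, 9.08 and 8.83. HCT116 was therefore lower by at least 2.35 than Hke3 and by at least 3.05 than Hkh-2. Hke3 and Hkh-2 did not overlap either, though the gap was narrow at 0.19, and the difference Hke3 minus Hkh-2 was -0.70 (95% interval -1.15 to -0.25). The second IFIT3 probe set, 204747_at, kept the order of the groups, with HCT116 near background. Its means were 5.58 ± 0.154 in vehicle, 5.70 ± 0.079 in doxycycline, 6.70 ± 0.250 in Hke3 and 7.07 ± 0.151 in Hkh-2 (SD, n = 3), and here the ranges of Hke3 and Hkh-2 just overlapped.

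IFIT2, which binds RNA rich in adenine and uracil and has been tied to cell death, was read by a pair of probe sets, on 1 of which HCT116 was near background. On 217502_at the vehicle arrays gave 6.26, 6.24 and 6.02, the doxycycline arrays 6.35, 6.12 and 6.08, the Hke3 arrays 7.29, 7.32 and 6.95 and the Hkh-2 arrays 7.28, 7.09 and 6.93. HCT116 and the recombined lines were apart by 0.57, and the fitted difference was -1.01 against Hke3 and -0.93 against Hkh-2 (SE 0.123). On 226757_at the vehicle arrays were near background at 3.97, 4.09 and 3.68, and Hke3 reached 6.90, 6.52 and 6.19 and Hkh-2 7.04, 6.69 and 6.90. HCT116 was lower by at least 0.53 than Hke3 and by at least 0.88 than Hkh-2 on this probe set, bounds set by the value 6. Both probe sets put Hke3 and Hkh-2 in overlapping ranges.

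IFIT5, which binds RNA with a 5′ triphosphate, was well above background in HCT116. On the brightest probe set of each gene it differed least among the IFIT genes, a ranking across probe sets and a description only. On 203595_s_at the vehicle arrays gave 9.43, 9.22 and 9.50 and the doxycycline arrays 9.36, 9.36 and 9.61, against 10.10, 10.20 and 9.86 in Hke3 and 10.11, 10.02 and 10.11 in Hkh-2. The groups were apart by 0.25 between HCT116 and the lines, with fitted differences of -0.67 and -0.69 (SE 0.106). The other probe set, 203596_s_at, had means of 8.15, 8.30, 8.63 and 8.53 in the same order of groups. On it the doxycycline arrays lay above the vehicle arrays by a gap of 0.06, and Hke3 and Hkh-2 overlapped.

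Of the IFITM genes, IFITM3 had its larger step between Hke3 and Hkh-2. IFITM2 had steps of similar size from vehicle to Hke3 and from Hke3 to Hkh-2, and IFITM1 was variable in Hkh-2. IFITM3, which blocks entry of influenza virus and other enveloped viruses from endosomes, gave 12.10, 12.37 and 12.19 with vehicle and 12.17, 12.17 and 12.23 with doxycycline on 212203_x_at. Hke3 gave 12.50, 12.35 and 12.63, and Hkh-2 gave 13.20, 13.09 and 13.06. The highest vehicle array, replicate 2, lay just above the lowest Hke3 array, and all Hkh-2 arrays lay above all Hke3 arrays by 0.42. The fitted differences were -0.28 for vehicle minus Hke3, -0.90 for vehicle minus Hkh-2 and -0.62 for Hke3 minus Hkh-2 (SE 0.091).

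IFITM2, a close relative of IFITM3 that also works in endosomes, followed the same order on 201315_x_at. Vehicle arrays gave 11.28, 11.62 and 11.40, doxycycline arrays 11.42, 11.42 and 11.50, Hke3 arrays 11.69, 11.58 and 11.86, and Hkh-2 arrays 12.15, 11.98 and 11.96. Vehicle and Hke3 overlapped, doxycycline and Hke3 were apart by 0.08, and Hke3 and Hkh-2 were apart by 0.09. The fitted differences were -0.28 against Hke3, -0.60 against Hkh-2 and -0.32 between Hke3 and Hkh-2 (SE 0.100).

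IFITM1, which sits mostly at the cell surface, was close in vehicle and Hke3 and variable in Hkh-2. On 214022_s_at vehicle arrays gave 6.67, 6.78 and 6.65, doxycycline arrays 6.55, 6.62 and 6.60, and Hke3 arrays 6.98, 6.88 and 6.39. Hkh-2 arrays gave 8.07, 7.62 and 6.74, so that Hkh-2 replicate 3 lay inside the ranges of vehicle and Hke3. The fitted differences were -0.05 for vehicle minus Hke3 and -0.78 for vehicle minus Hkh-2 (SE 0.249), and without Hkh-2 replicate 1 the latter was -0.48. The probe set shared by IFITM2 and IFITM1, 201601_x_at, had means of 6.54 ± 0.154 in vehicle, 6.47 ± 0.035 in doxycycline, 6.79 ± 0.045 in Hke3 and 7.40 ± 0.306 in Hkh-2 (SD, n = 3), and Hkh-2 lay above Hke3 by a gap of 0.29. Probe sets of the IFITM genes carry the suffixes _s_at and _x_at, which mark probes that can also match related transcripts, so signal may be shared among the family and its values are uncertain as gene-specific levels.

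**Figure D2:**
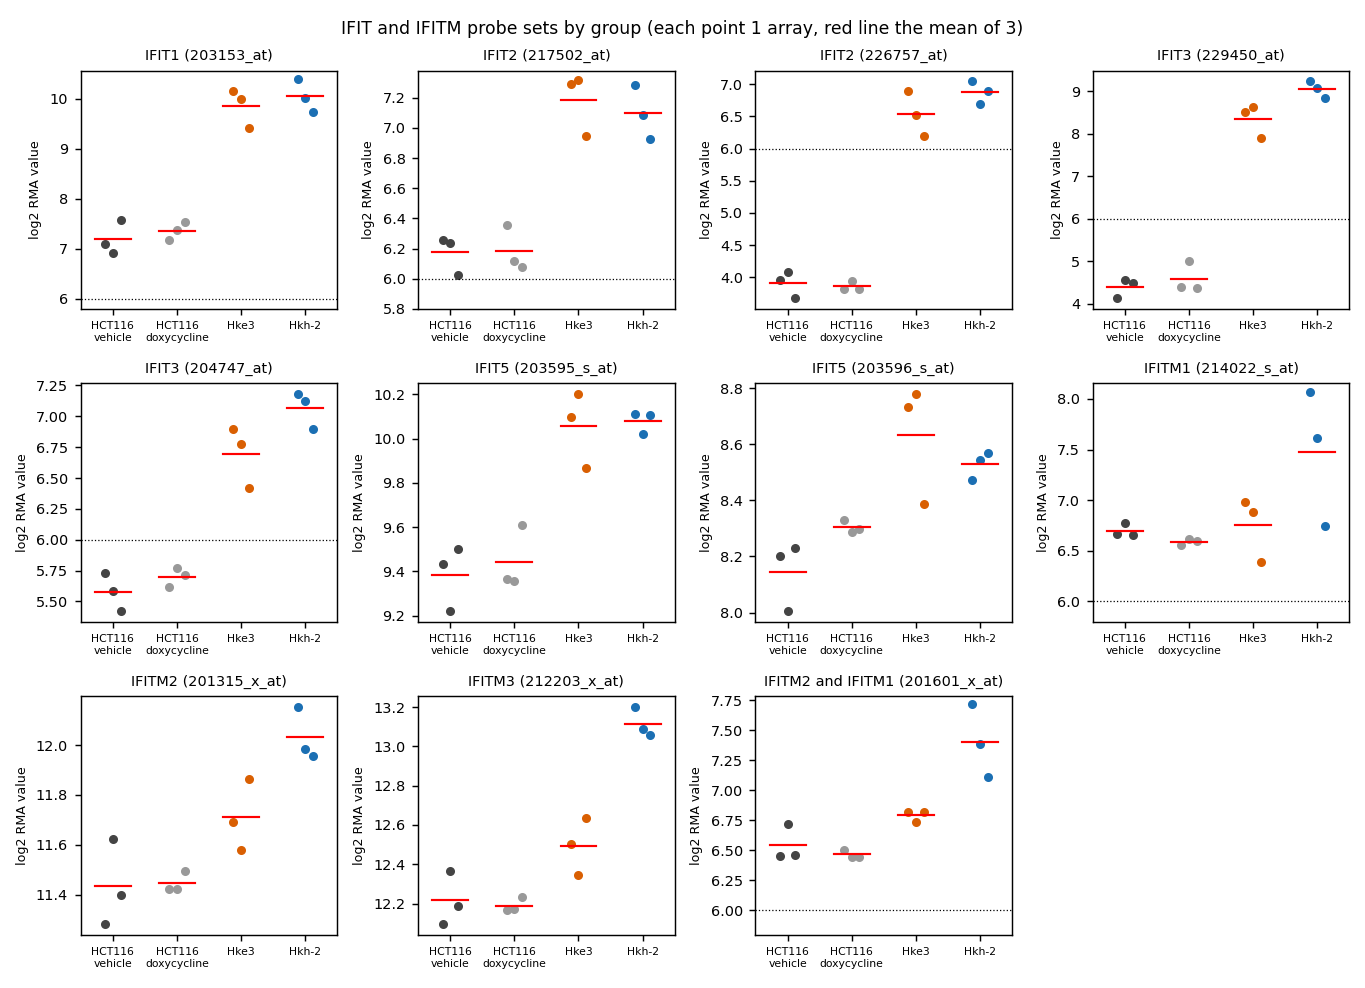
log2 RMA value (y axis) of each IFIT and IFITM probe set in the 4 groups, with 1 point per array, replicates 1 to 3 from left to right, and a red line at the mean of 3 arrays. The dotted line, drawn where a panel reaches that range, marks the value 6 under which a group mean was taken as near background. In the IFIT panels both HCT116 groups lie below both recombined lines, and in the IFITM3 panel Hkh-2 lies above the other 3 groups.

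Set side by side, 6 of the 7 genes were lower in vehicle than in Hke3 at an adjusted p under 0.05, with IFITM1 the exception, and 7 of 7 were lower than in Hkh-2. Over all genes 23.2% were lower and 24.6% higher against Hke3, and 21.7% lower and 14.3% higher against Hkh-2. Against both lines at once, 6 of the 7 were lower, and over all genes 12.6% were lower and 9.04% higher. Because these contrasts chose the genes, nothing is read from those counts, and they share the vehicle arrays. The median difference of the 7 genes was -0.67 against Hke3 and -0.90 against Hkh-2, and over all genes tested it was 0.045 and -0.02. Between Hke3 and Hkh-2, 4 of the 7 (IFIT3, IFITM1, IFITM2 and IFITM3) were lower in Hke3, where 23.5% of all genes were lower and 16.3% higher, and nothing is read from this count either. The calls of IFITM2 and IFITM3 against Hke3 were each lost without vehicle replicate 1, vehicle replicate 3, Hke3 replicate 1 or Hke3 replicate 3, and that of IFITM1 against Hkh-2 without vehicle replicate 1 or 3 or Hkh-2 replicate 1 or 2. The count between the lines fell to 1 without Hkh-2 replicate 1, and to 2 without Hke3 replicate 2, Hke3 replicate 3 or Hkh-2 replicate 2. On the brightest probe sets of IFIT1, IFIT2 and IFIT5 the 95% intervals of Hke3 minus Hkh-2 were -0.65 to 0.27, -0.18 to 0.35 and -0.25 to 0.20. In a fit of all probe sets, the second IFIT2 probe set, 226757_at, gave -0.34 (interval -0.67 to -0.012). The second IFIT5 probe set gave 0.10 (interval -0.12 to 0.33). Without the pair of arrays that stood apart the differences from Hke3 were -2.74 for IFIT1, -1.16 for IFIT2, -0.68 for IFIT5, -0.27 for IFITM1, -0.29 for IFITM2 and -0.28 for IFITM3. Differences in RNA of a whole culture do not show whether fewer cells express a gene or each cell holds less of its RNA.

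Doxycycline did not move any of the 7 genes past the threshold in HCT116 control cells. limma gave an adjusted p of 0.999897 for each of the 7, and 0 of them had an unadjusted p under 0.05. The largest fitted differences of doxycycline minus vehicle were 0.20 for IFIT3, whose groups are both near background, and 0.17 for IFIT1 (95% interval -0.29 to 0.63). The intervals were -0.26 to 0.28 for IFIT2, -0.17 to 0.29 for IFIT5, -0.65 to 0.43 for IFITM1, -0.20 to 0.23 for IFITM2 and -0.22 to 0.17 for IFITM3. Over all 12852 genes limma called 0% lower and 0% higher, and 127 had an unadjusted p under 0.05. On IFITM1 the doxycycline arrays lay below the vehicle arrays by a gap of 0.04, the reverse of the small gap on the second IFIT5 probe set.

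**Figure D3:**
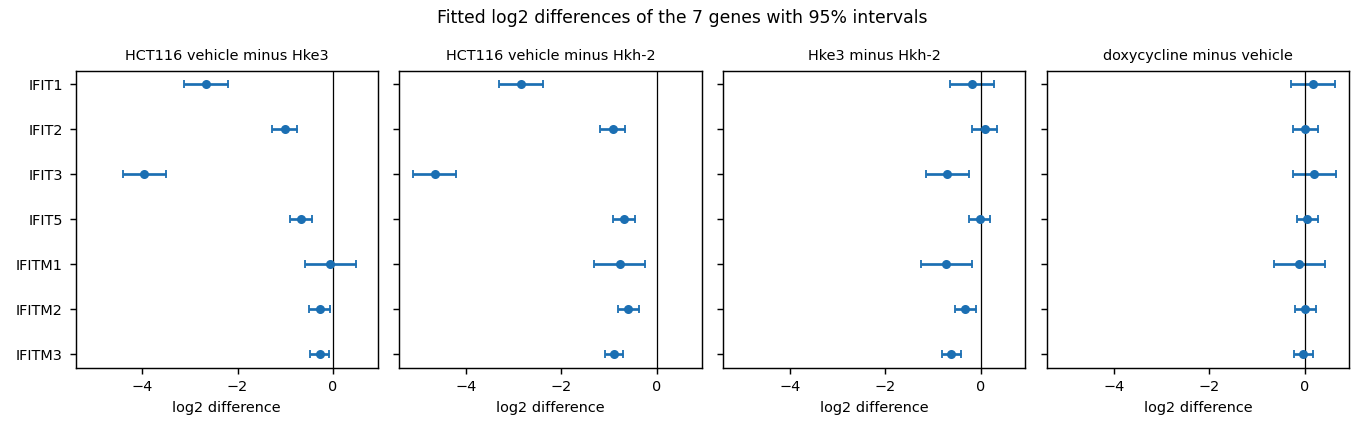
Fitted log2 differences (x axis) of the 7 genes with 95% intervals from limma in 4 comparisons, with the brightest probe set for each gene. The IFIT genes lie left of 0 against both recombined lines and IFIT1, IFIT2 and IFIT5 near 0 between them, the IFITM genes lie left of 0 between Hke3 and Hkh-2, and all 7 intervals of doxycycline minus vehicle include 0. The IFIT3 points use values near background in HCT116, so their size there is no bound.

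Within a line, the same arrays were low or high on many of the probe sets. Hke3 replicate 3 was the lowest of its group on 8 of the 10 probe sets and the highest on the other 2, those of IFITM2 and IFITM3. Hkh-2 replicate 1 was the highest of its group on 9 of 10, and Hkh-2 replicate 3 the lowest on 7 of 10. HCT116 vehicle replicate 2 was the highest of its group on 5 of 10, among them those of IFITM1, IFITM2 and IFITM3. It was the lowest on 3, those of IFIT1 and IFIT5. Hke3 replicate 3 and vehicle replicate 2 are the arrays that stood apart across all genes. The signal at the 5′ end of actin relative to its 3′ end, a sign of RNA quality, ranged from -0.855 to -0.480 in vehicle, -0.942 to -0.706 in doxycycline, between -0.575 and -0.229 in Hke3 and between -0.324 and -0.232 in Hkh-2, and the same measure for GAPDH lay between -0.033 and 0.114 in all groups. The part of these measures in the differences was not tested.

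The other genes of the interferon pathway, from lists that hold 102 genes besides the 7, were measured for 97, and 63 of those were kept. Against Hke3, 34 of the 63 were lower in vehicle and 4 higher, and against Hkh-2, 47 were lower and 3 higher, beside the shares of all genes given above. Of the 34, 4 (GBP1, IFI44, OAS1 and TRIM22) had means under 6 in both vehicle and Hke3 and were kept only through Hkh-2, which leaves 30. Hke3 was lower than Hkh-2 for 39 and higher for 4. GBP1, IFI44, OAS1, TRIM22 and MX2 reached a group mean of 6 only in Hkh-2. They are among the 47 and the 39, with a direction that the filter fixed in advance. The median difference of the 63 was -0.32 against Hke3, -0.81 against Hkh-2 and -0.52 between the lines, where the median over all genes was -0.06. With means under 6 counted as 6, a setting chosen after seeing the data, the medians were -0.22, -0.75 and -0.49. With doxycycline 0 of the 63 passed the threshold in limma and 2 had an unadjusted p under 0.05. That interferon-induced genes were lower in HCT116 was known from these arrays before the lists were drawn up, so the counts are no independent evidence of it.

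Of the ligands, 18 interferon genes of 20 were measured and 0 reached a group mean of 6, the highest being IFNA17 at 5.72 ± 0.156 in vehicle (SD, n = 3). Low signal on these probe sets does not show absence of the transcripts. The summed level of the ligands ranged from 70.9 to 71.9 in vehicle, 70.7 to 73.0 in doxycycline, 70.8 to 71.6 for Hke3 and 71.1 to 72.5 for Hkh-2, which are overlapping ranges. Of 17 genes that sense nucleic acids, 10 were kept, of which 4 were lower in vehicle than in Hke3 and 7 lower than in Hkh-2, with 0 higher in either. TLR3, an endosomal receptor for double-stranded RNA, was lower in HCT116 by at least 1.72 than in Hke3 and by at least 2.31 than in Hkh-2. RIGI, a cytoplasmic sensor of RNA with a 5′ triphosphate, was lower by at least 2.10 and at least 3.39. IFIH1, which senses long double-stranded RNA, differed by -0.89 from Hke3 and by -3.20 from Hkh-2 (SE 0.164). MYD88, an adaptor of most Toll-like receptors, differed by -0.09 from Hke3, which did not pass, and by -0.87 from Hkh-2.

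Of 12 receptor and relay genes that were measured, all 12 were kept, 5 were lower in vehicle than in Hke3 and 5 than in Hkh-2, and 1 was higher than in Hkh-2 (IFNAR2, named after its value of 0.21 was seen). IRF9, the DNA-binding part of the complex that recognises the ISRE, had means of 7.46 ± 0.047 in vehicle, 7.41 ± 0.215 in doxycycline, 8.67 ± 0.207 in Hke3 and 9.27 ± 0.297 in Hkh-2 (SD, n = 3). Its differences from vehicle were -1.20 and -1.80. JAK1, the kinase shared by the interferon receptors, differed by -1.21 and -0.81, so that Hke3 exceeded Hkh-2 by 0.41. SOCS3, a feedback inhibitor of Janus kinases, differed by -0.84 and -0.64, and IL10RB, a chain of the receptor for interferon lambda, by -0.64 and -0.45. In this list Hke3 was lower than Hkh-2 for 2 genes and higher for 4, and its median of Hke3 minus Hkh-2 was 0.19.

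Of 6 interferon regulatory factors kept, 2 were lower and 2 higher in vehicle than in Hke3, and 3 were lower and 1 higher than in Hkh-2. IRF7, which drives interferon alpha genes and is itself induced by interferon, differed by -0.91 and -1.82. IRF2 was near background in HCT116 and was lower there by at least 0.30 and at least 0.96. IRF1, an activator of interferon-induced genes, differed by -0.18 from Hke3, which did not pass, and by -1.45 from Hkh-2. IRF8, mainly known from blood cells, went the other way, higher in vehicle by 0.36 and 0.35.

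Of 43 other interferon-induced effector genes, 35 were kept. Against Hke3, 23 were lower in vehicle and 2 higher, against Hkh-2, 32 were lower and 1 higher, and between the lines 27 were lower in Hke3 and 0 higher. The 23 include the 4 genes near background in both vehicle and Hke3, without which 19 remain. Those 4 and MX2 are also among the 32 and the 27, and they passed the filter only through Hkh-2. The medians of the list were -0.54, -1.17 and -0.66, and with means under 6 counted as 6 they were -0.30, -0.96 and -0.58. DTX3L and PARP9, which form a complex of a ubiquitin ligase and an ADP-ribosyltransferase-like protein, differed by -2.06 and -2.38 for DTX3L and by -1.53 and -2.79 for PARP9. GBP1, a GTPase that attacks intracellular pathogens, was near background in HCT116 and in Hke3 and at 6.70 ± 0.099 in Hkh-2 (SD, n = 3), a difference of at least 0.70 from each. IFI44 had a mean over 6 only in Hkh-2 among the 4 groups, 6.34 ± 0.588 there against 5.35 ± 0.182 in Hke3 and 3.87 ± 0.109 in vehicle. TRIM25, a ubiquitin ligase that acts on RIGI, was the effector higher in vehicle than in both lines, by 0.89 and 0.82, and was named after its values were seen. Of 20 kept effector genes whose promoter window held an ISRE match, 14 were lower in vehicle than in both lines, and of 8 without one, 4 were. Without the genes near background in both vehicle and Hke3 these counts were 12 of 18 and 3 of 7. Over all genes 12.6% were lower against both lines, and the split by motif was not tested. Over the whole list 24 of 34 effector genes with a window held a match, against 4 of 12 sensing genes, 1 of 12 receptor and relay genes and 0 of 4 regulatory factors.

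**Figure D4:**
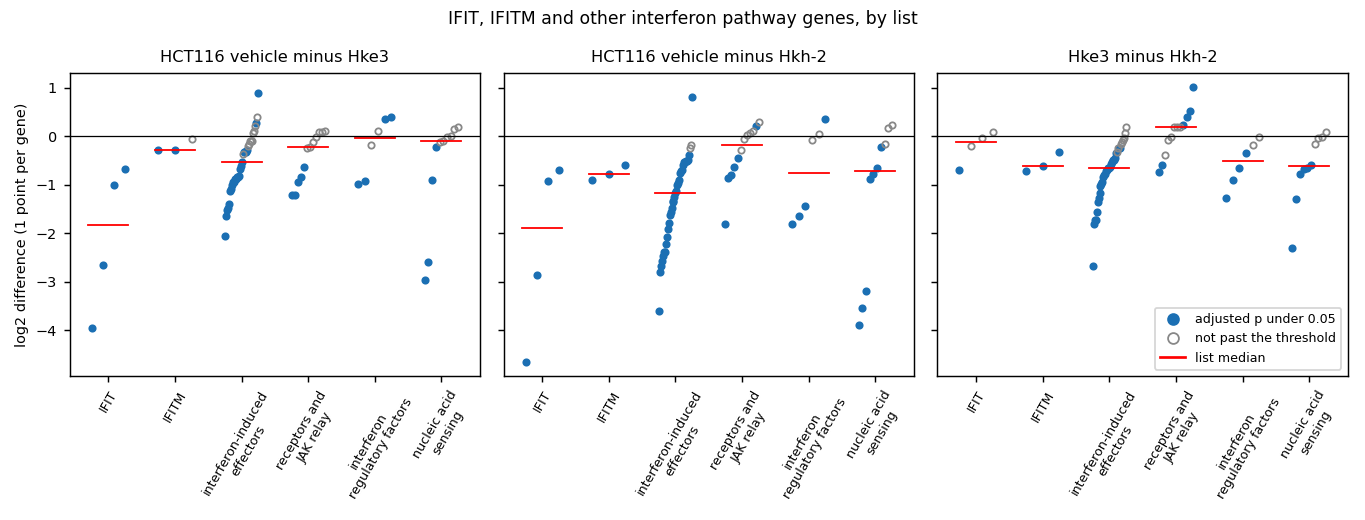
log2 differences (y axis) of the IFIT and IFITM genes and of the other kept interferon pathway genes in 3 comparisons, with 1 point per gene, filled where limma's adjusted p was under 0.05, and a red line at the median of each list. The effector medians are -0.54, -1.17 and -0.66 from left to right, from fitted values that include group means under 6. Effector points lie mostly below 0 in all 3 panels, and receptor and relay points lie on both sides of 0 between Hke3 and Hkh-2.

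Of 7 genes for partners and regulators of IFIT and IFITM proteins, 6 were kept, 3 were lower and 1 higher in vehicle than in Hke3, and 1 was lower than in Hkh-2. Of all genes, 23.2% were lower and 24.6% higher against Hke3, and 21.7% lower and 14.3% higher against Hkh-2. Nothing is read from the counts of these few genes. ZMPSTE24, a membrane protease that works with IFITM proteins, differed by -0.30 and -0.25. ZDHHC20, which attaches palmitate to IFITM3, differed by -0.26 from Hke3 and by -0.17 from Hkh-2, where it did not pass. VCP, an ATPase that takes part in the turnover of IFITM3, differed by 0.22 from Hke3 and by 0.14 from Hkh-2, the latter not past the threshold. NEDD4, a ubiquitin ligase of IFITM3, differed by -0.44 from Hke3 and by 0.18 from Hkh-2, the latter also not past it.

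The IFIT genes lie together on chromosome 10 and the IFITM genes on chromosome 11, in the order of RefSeq IFIT2, IFIT3, IFIT1, IFIT5 and IFITM2, IFITM1, IFITM3. Among genes within 100 kb that were kept, LIPA, a lysosomal acid lipase next to IFIT2, was lower in vehicle than in both lines, by -0.81 from Hke3 and -1.03 from Hkh-2 (limma adjusted p = 2.63e-05 and 3.85e-06). CH25H, an interferon-induced enzyme on the other side of LIPA, was near background in all 4 groups, with means from 3.60 to 3.65. Near the IFITM genes, SIRT3 was higher in vehicle than in Hke3 by 0.20 (limma adjusted p = 0.0492) and did not pass against Hkh-2. SIGIRR, an inhibitor of Toll-like receptor signalling, did not pass against vehicle and was lower in Hke3 than in Hkh-2 by -0.60 (limma adjusted p = 0.0266). PGGHG, PKP3 and ANO9 passed in none of these 3 comparisons, with differences from Hke3 of -0.14, 0.33 and 0.29 and from Hkh-2 of -0.14, -0.08 and -0.04. NLRP6 and B4GALNT4 had all group means under 6.

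Over the 12 arrays, Pearson's r between pairs of IFIT genes ranged from 0.916 to 0.985, and that of IFITM2 with IFITM3 was 0.974. IFITM1 correlated with them at 0.690 and 0.734, and pairs of an IFIT with an IFITM gene ranged from 0.522 to 0.849. These values are a description, since the arrays share 4 groups and their normalization, and the differences between groups carry most of the variation. Of 1247 other genes whose group means spanned 1 or more, those most like the mean of the IFIT genes were DTX3L (r = 0.994), KRT23 (0.994), SMARCA2 (0.993), ZDHHC13 (0.993), NMI (0.992), HMGN5 (0.992), TLR3 (0.992) and IRS2 (0.991). KRT23, a keratin, had means of 6.87, 6.83, 8.75 and 8.92 in vehicle, doxycycline, Hke3 and Hkh-2. SMARCA2, an ATPase of chromatin remodelling complexes, had means of 4.05, 4.35, 7.99 and 8.15 in the same order, those of HCT116 near background. The mean of the IFIT genes includes IFIT3, also near background in HCT116, so the correlations with it rest partly on such values. Across these 8 genes Hke3 minus Hkh-2 ranged from -0.59 for TLR3 to -0.01 for HMGN5, values that the choice of genes by likeness constrains.

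Those most like the mean of the IFITM genes were IFI6 (r = 0.974), OAS3 (0.969), DTX4 (0.960), CITED2 (0.959), PRR15 (0.952), OAS1 (0.952), CEBPD (0.946) and ATOX1 (0.942). IFI6, an interferon-induced membrane protein, had means of 8.06 in vehicle, 8.88 in Hke3 and 10.43 in Hkh-2. OAS3, a synthase of 2′-5′ oligoadenylates that responds to double-stranded RNA, had means of 8.78, 8.73, 9.12 and 9.74 in vehicle, doxycycline, Hke3 and Hkh-2. CITED2, a transcriptional coregulator, had means of 8.93, 8.90, 9.36 and 10.17 in the same order. Here the larger step was between Hke3 and Hkh-2, with differences of -1.55 for IFI6, -0.62 for OAS3 and -0.81 for CITED2. The choice of genes by likeness constrains that pattern, so nothing is read from it. OAS1 was near background in all groups but Hkh-2 and passed the filter only through that line.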

How the data were processed

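RNA of vehicle-treated and doxycycline-treated (25 ng/ml) HCT116 control cells and of Hke3 and Hkh-2 was hybridised to Affymetrix GeneChip Human Genome arrays, 3 for each. Each probe set has a log2 value for every array in the deposited table, which the authors made with RMA according to the submitters' notes. The RMA version and the arrays normalized together are not given in the sources used here. Groups came from the labels. The targeted gene is not reported here.

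Of the probe sets, 41097 have a single symbol in the platform annotation, and 41043 of these were matched by gene ID to RefSeq (GRCh38.p14). The probe set with the highest mean stood for its gene, and genes were kept where a group mean was at least 6, a filter that the study's methods use for another comparison. Group means of all 12 arrays were fitted with lmFit, contrasts.fit and eBayes of limma (version 3.58.1, in R 4.3.3), with Benjamini-Hochberg adjustment across the 12852 genes kept. The fit was tested on simulated data with noise drawn independently for each gene and array. Deviations shared between arrays, which these data have, were not part of that simulation. Precision is limited by the number of arrays.

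The 7 genes, the lists and the rules for named genes were chosen with earlier results of these data known. Named were the 7 genes, up to 4 genes of each pathway list with the largest mean difference from both lines (from fitted values, so that the rank of GBP1 and IFI44 rests partly on group means near background), neighbours within 100 kb, and the 8 genes most alike each family. Listed genes without a probe set of their own were not analysed here. The main fit used no pairing of arrays. For vehicle and doxycycline arrays of the same number, the deviations from the group means went together in each of the 3 pairs (r = 0.228, 0.212 and 0.453 over genes). The replicate block, used only in an alternative fit, joined arrays of the same number across all groups. It thus also joined vehicle with Hke3, where r was 0.355, -0.578 and -0.580 at replicates 1, 2 and 3. Alternatives were the mean of probe sets, no _s_at or _x_at probe sets, other filters, scalings and fits, the replicate block, pooled control arrays and leaving out arrays.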

Additional observations from a re-analysis of the deposited data

How the results depend on the processing

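No called difference of an IFIT or IFITM gene changed direction. Of their values under the alternatives, 647 counted as unchanged and 8 moved by more than the spread between arrays. Unchanged meant a shift under that spread, or for most doxycycline values the same side of the threshold. Other filters or fits, the replicate block and leaving out arrays of groups not compared cannot move a difference. Many of the 647 were therefore fixed in advance, and the count is no measure of stability. The 8 came from averaging the probe sets of IFIT2, IFIT3 and IFIT5, or from counting means under 6 as 6 for IFIT3. The averages of IFIT2 and IFIT3 in HCT116 are near background, so their sizes are not given. IFITM1 against Hkh-2 lost the threshold without vehicle replicate 1 or 3 or Hkh-2 replicate 1 or 2. IFITM2 and IFITM3 against Hke3 lost it without vehicle replicate 1 or 3 or Hke3 replicate 1 or 3, and IFITM2 also without doxycycline replicate 2. Fitted on the compared groups only, limma's adjusted p was 0.109 for IFITM2 and 0.089 for IFITM3 against Hke3, 0.0529 for IFITM1 against Hkh-2 and 0.0914 for IFITM1 between the lines, and with no filter it was 0.0525 for IFITM2 against Hke3.

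Without probe sets ending in _s_at or _x_at, IFIT5 and the IFITM genes have no value, so the genes past the threshold number 3 against Hke3, 3 against Hkh-2 and 1 between the lines. Leaving out 1 array at a time, the last count ranged from 1 to 4. Of the 63 pathway genes, those higher in vehicle than in Hkh-2 went from 3 to 5 with both HCT116 groups pooled and ranged from 2 to 5 with 1 array left out, being 5 without Hke3 replicate 3. Those higher in Hke3 than in Hkh-2 went from 4 to 2 with the mean of probe sets, to 2 without the _s_at and _x_at probe sets, and to 7 without both arrays that stood apart, and ranged from 3 to 7 with 1 array left out, being 7 without Hke3 replicate 3. The causes were not tested beyond the probe sets removed. Pathway genes lower in vehicle ranged from 26 to 38 against Hke3 and from 36 to 51 against Hkh-2.

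With the replicate block, which joined arrays of the same number across all groups, limma again called 0 genes between doxycycline and vehicle. In that comparison 124 genes had an unadjusted p under 0.05 in limma, against 127 without the block, and IFIT1 stayed at 0.17. With the block in the fit, IFITM2 against Hke3 had an adjusted p of 0.0594 from limma, beside 0.0372 without it.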
